A study of Mus musculus with 6 samples.

Results

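The genes described here are 10 of the NF-kB system, taken as the rows of the deposited gene count table with these symbols: the subunits Rela, Relb, Nfkb1 and Nfkb2, the inhibitors Nfkbia and Tnfaip3, and the target genes Cxcl1, Ccl2, Csf1 and Ptgs2. All 10 were found, each under 1 gene identifier, among 54532 rows, and all 10 had enough counts to be among the 16844 genes tested. Cxcl1 and Ccl2 encode chemokines, whereas Csf1 encodes a growth factor of macrophages and Ptgs2 the enzyme cyclooxygenase-2, so that the target group is not one of chemokines alone. Total RNA of 6 samples was sequenced in bulk. The samples are labelled NIT-1 and beta cell, NIT-1 being a mouse insulinoma line derived from T-antigen transgenic beta cells of NOD mice. In 3 samples (EV_Tm) the cells had been given hucMSC-EVs for 16 h, extracellular vesicles shed by mesenchymal stem cells of the human umbilical cord. In the other 3 (PBS_Tm, titled ERS) they had been given PBS for the same time. Both groups then had 8 h of Tm, read here as tunicamycin, which blocks N-linked glycosylation and so causes endoplasmic reticulum (ER) stress. The genotype labels read EVs treated and Ctrl and name no allele, and the PBS_Tm samples are labelled none treated although the series' design text gives them Tm. No sample without Tm was analysed here, so every difference below is one between vesicles and PBS in cells that all had Tm.

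NF-kB is a family of dimeric transcription factors built from the Rel-homology proteins RelA, RelB, c-Rel, p50 (cut from the Nfkb1 product) and p52 (cut from the Nfkb2 product). In resting cells IkB proteins such as IkB-alpha, the product of Nfkbia, hold the dimers in the cytoplasm. An upstream IkB kinase marks IkB-alpha for destruction, the dimers enter the nucleus, and among the genes they switch on are Nfkbia and Tnfaip3 themselves, which close a negative feedback loop. In beta cells the pathway is best known as the mediator of the response to inflammatory cytokines, and chemokines such as CXCL1 and CCL2 made by stressed islets draw in neutrophils and monocytes.

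Promoter stretches that match the NF-kB motif are shown first, because they were found both in genes that rose and in genes that did not. RefSeq promoter windows on GRCm38.p6 were at hand for 7 of the 10 genes, and Relb, Nfkb1 and Ccl2 had none in that table. The 250 bases upstream of each RefSeq start site were searched on both strands for the kB consensus, a motif of 10 bases, and 7.25% of 32851 such windows of all genes held a match. Of the 7 genes, 5 held at least 1 match (Nfkb2, Nfkbia, Tnfaip3, Cxcl1 and Csf1) and 2 held none in this window (Rela and Ptgs2). Below, the capitals mark the match, the sequence is that of the gene's own strand, and for Cxcl1, Nfkbia and Csf1 the run stops at the gene's first annotated base. For Tnfaip3, whose gene as deposited begins upstream of the RefSeq start, and for Nfkb2, only 30 bases around a match are given.
Cxcl1, chr5:90891081-90891240, plus strand: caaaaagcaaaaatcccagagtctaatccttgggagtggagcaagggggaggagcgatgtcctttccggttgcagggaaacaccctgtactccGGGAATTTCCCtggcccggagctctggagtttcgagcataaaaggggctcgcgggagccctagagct
Nfkbia, chr12:55492648-55492807, minus strand: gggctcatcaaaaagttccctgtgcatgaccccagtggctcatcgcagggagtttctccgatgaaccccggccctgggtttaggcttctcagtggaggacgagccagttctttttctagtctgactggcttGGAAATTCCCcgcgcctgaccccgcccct
Csf1, chr3:107760470-107760629, minus strand: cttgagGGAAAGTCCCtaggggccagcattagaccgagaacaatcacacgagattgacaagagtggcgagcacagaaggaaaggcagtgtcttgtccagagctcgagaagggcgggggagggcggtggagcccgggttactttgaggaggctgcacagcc
Tnfaip3, chr10:19015516-19015545, minus strand: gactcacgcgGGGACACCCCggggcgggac
Tnfaip3, chr10:19015411-19015440, minus strand: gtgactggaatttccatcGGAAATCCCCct
Nfkb2, chr19:46304688-46304717, plus strand: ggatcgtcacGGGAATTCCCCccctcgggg

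In Cxcl1 the match lay 71 to 61 bases upstream of the RefSeq start, as 2 overlapping matches on opposite strands. The match in Nfkbia lay 29 to 20 bases upstream, and read on the strand opposite to the one printed it was the same 10 bases, GGGAATTTCC, that Cxcl1 held on its own strand. Csf1 held its match further out, at 154 to 145 bases. The first Nfkb2 window had another match at 11 to 2 bases, not printed, and its windows at 2 further start sites held 1 each. An AP-1 site (TGANTCA, in 6.75% of all windows) was found in Tnfaip3 and in Nfkb2, 136 to 130 bases upstream of the first Tnfaip3 start, just upstream of its outer kB match; the place in Nfkb2 was in a window further into the gene. The ER stress element (the full 19-base consensus, in 0.113% of all windows) was in none of the 7. Among all genes tested that had a window, a kB match was held by 12.1% of the 2555 higher in EV_Tm, 10.3% of the 3215 lower and 9.9% of the 5071 that did not pass.

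Set against each other, 1 of the 4 subunits fell, both inhibitors rose, and the targets split. Of the 10 genes, 4 rose (Nfkbia, Tnfaip3, Cxcl1 and Ccl2) and 3 fell (Rela, Csf1 and Ptgs2) in EV_Tm by edgeR's quasi-likelihood test at an adjusted p under 0.05. Across all 16844 genes tested 47.4% passed, 22.6% as higher and 24.7% as lower, so passing was common in this comparison. The subunits had 1 of 4 called, and their median log2 fold change (EV_Tm minus PBS_Tm) was 0.03, near the 0.01 of all genes tested. The 2 inhibitors had a median of 0.78. Among the targets 2 rose and 2 fell, their median was -0.08, and their fold changes ran from -0.46 to 2.55 on the log2 scale. No overlap between the groups was seen in 7 of the 10 genes and in 54.5% of all genes tested.

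**Figure D1:**
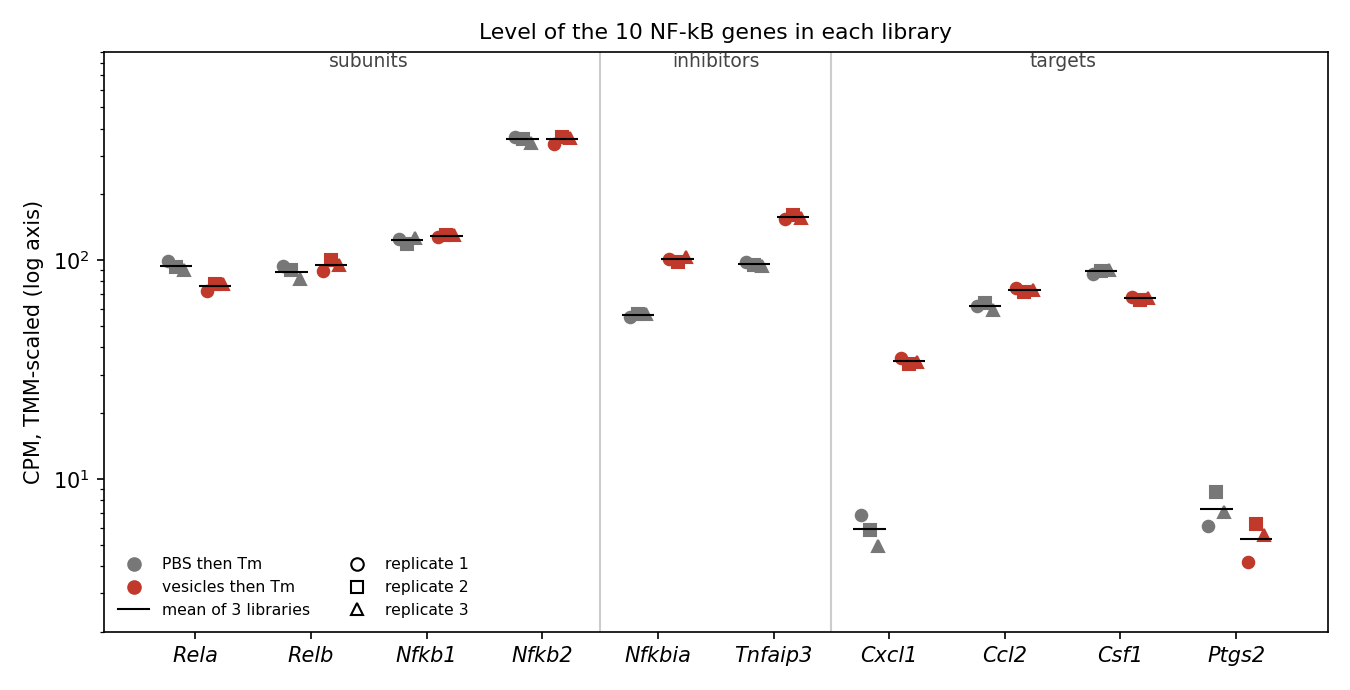
Level of each of the 10 genes in each library, in CPM scaled by TMM, on a log axis; grey marks are the 3 PBS_Tm libraries, red marks the 3 EV_Tm libraries, the mark's shape is the replicate number and the black line is the mean. Cxcl1 went from 4.95 to 6.82 CPM in PBS_Tm to 33.6 to 35.9 in EV_Tm, while the marks of Nfkb2 overlap.

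Levels below are CPM, counts divided by the TMM-scaled library size, given in the order of replicates 1, 2 and 3. Rela (chr19:5637483-5648130, plus strand) encodes RelA or p65, the subunit that carries the transactivation domain of the most common dimer. It was at 98.8, 92.8 and 90.3 CPM in PBS_Tm and at 72.0, 78.2 and 77.6 in EV_Tm. Every EV_Tm library lay under every PBS_Tm library, and the fall was 1.24-fold (log2 fold change -0.31 ± 0.05, SE, n = 3 each, edgeR adjusted p = 2.50e-05). This difference was of middling size, since 53.3% of all genes tested had a smaller absolute fold change.

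Relb (chr7:19606217-19629438, minus strand), the subunit that pairs with p52 in the alternative pathway, was at 93.7, 90.5 and 82.2 CPM in PBS_Tm and at 89.7, 99.97 and 94.7 in EV_Tm. The groups overlapped, and Relb did not pass (log2 fold change 0.09 ± 0.05, SE, n = 3 each, edgeR adjusted p = 0.165). Nfkb1 (chr3:135584655-135691547, minus strand), the source of p105 and p50, was at 125, 119 and 127 CPM in PBS_Tm and at 128, 129.8 and 131 in EV_Tm. The EV_Tm libraries all lay just above the others, but the gap was small and Nfkb1 did not pass (log2 fold change 0.07 ± 0.04, SE, n = 3 each, edgeR adjusted p = 0.216). With library size alone in place of TMM, Relb and Nfkb1 passed narrowly, at an edgeR adjusted p of 0.0457 and 0.0481.

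Nfkb2 (chr19:46304737-46312090, plus strand), the source of p100 and p52, was the subunit with most counts. It was at 367, 358 and 345 CPM in PBS_Tm and at 341, 366 and 362 in EV_Tm. The 2 means were 357 ± 11 and 356 ± 13 CPM (SD, n = 3 each), and Nfkb2 did not pass (edgeR adjusted p = 0.994). The 95% interval of its ratio, EV_Tm over PBS_Tm, ran from 0.944 to 1.06. For Relb the interval was 0.987 to 1.15 and for Nfkb1 0.984 to 1.12. The last 4 bases of Nfkb2 overlap Psd, a gene of the opposite strand, and a non-coding model, Gm43430, lies within Nfkb1, but that model had 3 to 32 counts a library.

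The remaining Rel-family gene is Rel, which encodes c-Rel, a subunit prominent in lymphocytes. Per length it was the lowest of the 5, at 1.46 ± 0.11 RPKM (PBS_Tm) and 1.13 ± 0.15 (EV_Tm; SD, n = 3 each; RPKM is CPM per kilobase of gene length). Its libraries held 11.3, 11.5 and 9.99 CPM in PBS_Tm and 8.87, 9.21 and 7.14 in EV_Tm. The fall was 1.30-fold (log2 fold change -0.38 ± 0.12, SE, n = 3 each, edgeR adjusted p = 0.0125). Without EV_Tm replicate 3, its lowest library, Rel no longer passed (edgeR adjusted p = 0.0955).

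Both inhibitors rose by well over the spread between libraries. Nfkbia (chr12:55489410-55492647, minus strand), which encodes IkB-alpha, was at 54.8, 56.9 and 56.6 CPM in PBS_Tm and at 101, 98.6 and 103 in EV_Tm. The libraries of a group lay within a few CPM of each other and the groups lay far apart. The rise was 1.80-fold (log2 fold change 0.85 ± 0.05, SE, n = 3 each, edgeR adjusted p = 4.45e-13), and 89.5% of all genes tested had a smaller absolute fold change.

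Tnfaip3 (chr10:19000910-19015657, minus strand) encodes A20, a ubiquitin-editing enzyme that dampens signalling between the TNF receptor and the IkB kinase. It was at 97.7, 95.4 and 94.4 CPM in PBS_Tm and at 154, 162 and 156 in EV_Tm. Again no value of one group reached the other, and the rise was 1.64-fold (log2 fold change 0.71 ± 0.04, SE, n = 3 each, edgeR adjusted p = 1.40e-12). Nfkbia and Tnfaip3 kept their call under all 14 alternatives, with log2 fold changes from 0.83 to 0.89 and from 0.69 to 0.75.

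Cxcl1 (chr5:90891241-90893115, plus strand) encodes a chemokine that attracts neutrophils through the receptor CXCR2, and it had the largest change of the 10. It was at 6.82, 5.87 and 4.95 CPM in PBS_Tm, from 217, 177 and 159 counts. In EV_Tm it was at 35.9, 33.6 and 34.1 CPM, from 1117, 974 and 1098 counts. The lowest EV_Tm library was several times above the highest PBS_Tm library, and the rise was 5.87-fold with a 95% interval of 5.07 to 6.80 (n = 3 each, edgeR adjusted p = 2.98e-16). Of all genes tested 99.6% had a smaller absolute fold change. The leukocyte marker Itgam, named after its counts were seen, also had more counts in EV_Tm, 8, 7 and 23 against 0, 0 and 1, and its part in the chemokine values was not tested. Other leukocyte markers, given further below, went both ways.

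Ccl2 (chr11:82035571-82037453, plus strand), which encodes MCP-1, the main chemokine for monocytes, rose only slightly. It was at 61.8, 63.8 and 59.3 CPM in PBS_Tm and at 74.3, 71.5 and 72.9 in EV_Tm. The groups did not overlap, and the rise was 1.18-fold with a 95% interval of 1.10 to 1.28 (n = 3 each, edgeR adjusted p = 4.64e-04). The intervals of the 2 chemokine genes did not overlap. The whole of Ccl2 lies under Gm17268, a gene model of the opposite strand, which had at most 1 count a library.

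Csf1 (chr3:107741048-107760469, minus strand) went the other way. Its product, the ligand of the receptor CSF1R, keeps macrophages alive and growing. It was at 86.9, 89.8 and 89.9 CPM in PBS_Tm and at 67.9, 65.5 and 67.3 in EV_Tm. All EV_Tm values lay under all PBS_Tm values, and the fall was 1.33-fold (log2 fold change -0.41 ± 0.05, SE, n = 3 each, edgeR adjusted p = 1.78e-07). Its upstream window, printed above, holds 1 kB match.

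Ptgs2 (chr1:150100031-150108227, plus strand) encodes the inducible cyclooxygenase that starts prostaglandin synthesis, and it was the member with fewest counts, 1173 over all libraries. It was at 6.10, 8.68 and 7.09 CPM in PBS_Tm and at 4.18, 6.24 and 5.53 in EV_Tm. The groups overlapped, since PBS_Tm replicate 1 lay under EV_Tm replicate 2. It fell 1.37-fold (log2 fold change -0.46 ± 0.16, SE, n = 3 each, edgeR adjusted p = 0.0237). The call rested on 2 libraries: without PBS_Tm replicate 2 the adjusted p was 0.156, and without EV_Tm replicate 1 it was 0.146 (edgeR).

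**Figure D2:**
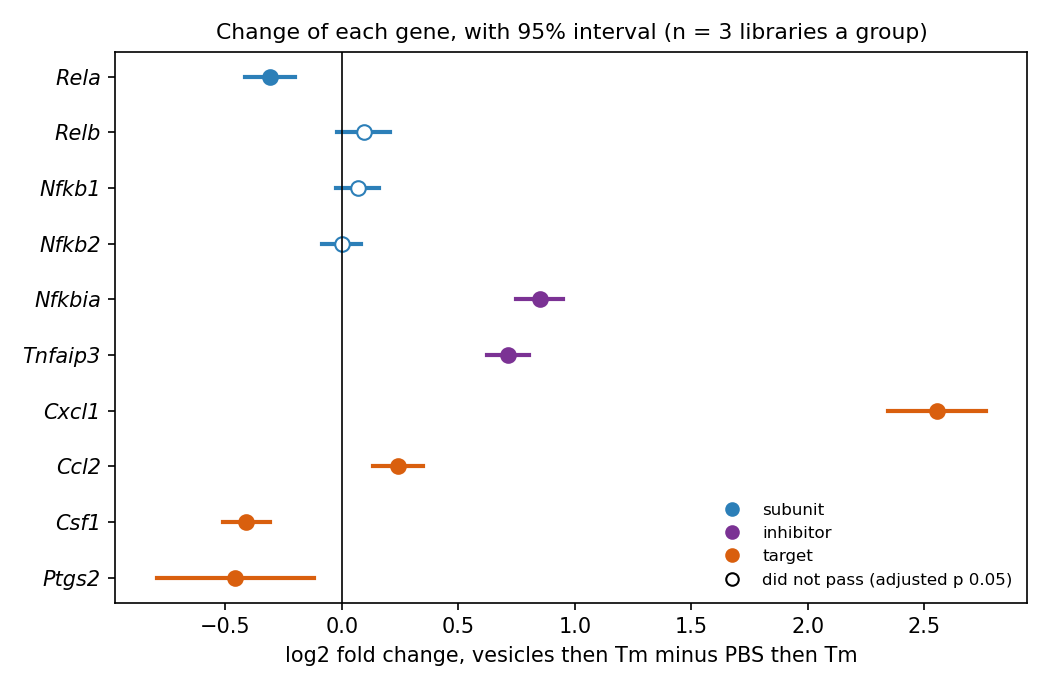
Log2 fold change of each gene, EV_Tm minus PBS_Tm, with its 95% interval as a bar, coloured by role; open marks did not pass at an adjusted p of 0.05. The intervals of Relb, Nfkb1 and Nfkb2 span 0, those of Nfkbia and Tnfaip3 lie between 0.62 and 0.95, and Cxcl1 stands alone at 2.55.

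Because fold changes depend on how libraries are scaled, the members were also set against each other within each library, as counts of one gene per count of another. Such ratios are free of library size, but not of gene length, so only their change between groups is read. Nfkbia per Rela was 0.554, 0.613 and 0.627 in PBS_Tm and 1.40, 1.26 and 1.33 in EV_Tm, a ratio 2.23-fold higher with no overlap. Tnfaip3 per Rela went from 1.02 ± 0.03 to 2.07 ± 0.06 (SD, n = 3 each), 2.03-fold higher. Rela itself fell 1.24-fold, so every ratio per Rela includes that fall. Taken alone, Nfkbia rose 1.80-fold and Tnfaip3 1.64-fold. Within the targets, Cxcl1 per Ccl2 was 0.110, 0.0919 and 0.0835 in PBS_Tm and 0.483, 0.470 and 0.468 in EV_Tm, 4.97-fold higher. Csf1 per Ccl2 was 1.44 ± 0.06 in PBS_Tm and 0.918 ± 0.005 in EV_Tm, 1.57-fold lower. Among the subunits the ratios moved least. Relb per Rela went from 0.944 ± 0.032 to 1.25 ± 0.03 (SD, n = 3 each), 1.32-fold higher. Nfkb1 per Rela was 1.30-fold higher. Nfkb2 per Relb went from 4.02 ± 0.15 to 3.76 ± 0.09 (SD, n = 3 each), 1.07-fold lower. The groups did not overlap in any of these subunit ratios.

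**Figure D3:**
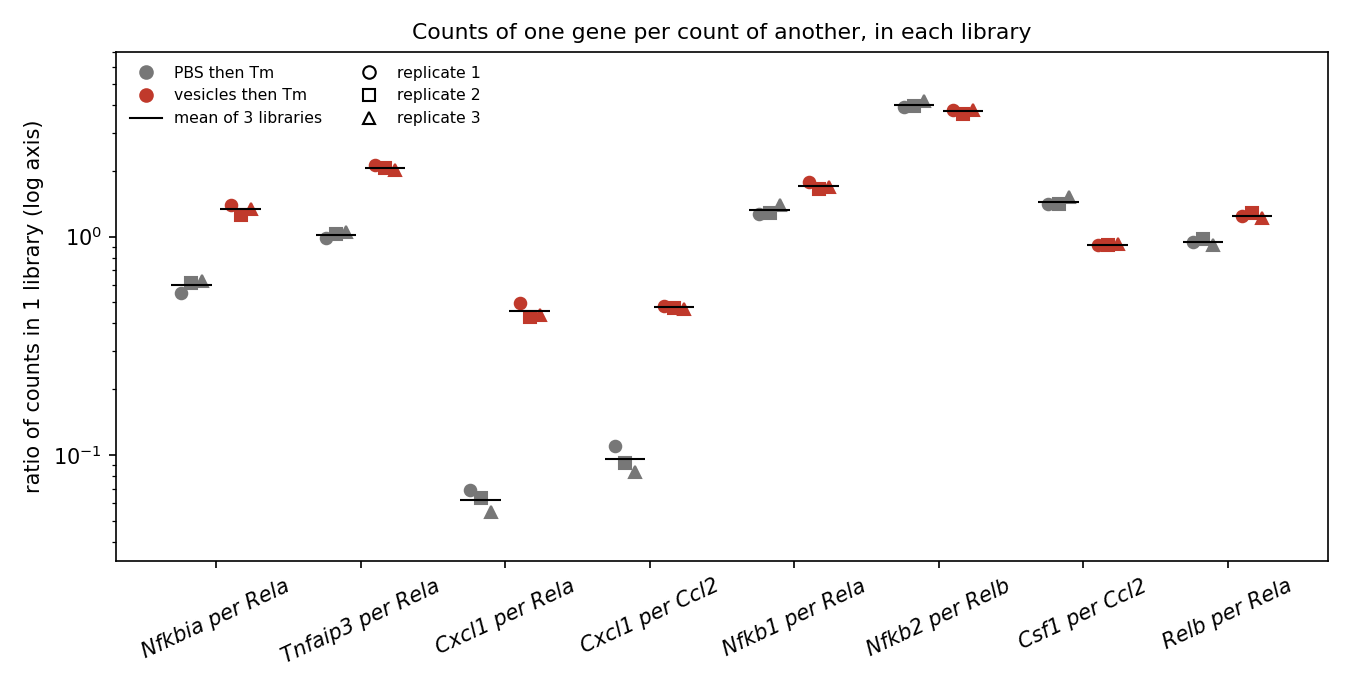
Counts of one gene per count of another in each library, on a log axis, with the 3 PBS_Tm libraries in grey, the 3 EV_Tm libraries in red and the mean as a line. The largest shifts are Cxcl1 per Rela and Cxcl1 per Ccl2, 7.31-fold and 4.97-fold higher in EV_Tm, and the smallest is Nfkb2 per Relb.

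To compare levels between genes, RPKM was used. The order therefore rests on the deposited gene length, which is longest for Nfkb1 (12061 bases). By CPM, Nfkb1 at a mean of 124 in PBS_Tm lay above all the other members but Nfkb2. In PBS_Tm Nfkb2 was the highest of the 10, at 108 ± 3 RPKM, followed by Ccl2 at 54.2 ± 2.0 (SD, n = 3). Nfkbia at 34.9 ± 0.7 and Rela at 34.6 ± 1.6 RPKM could not be separated, their libraries overlapping. Relb at 22.9 ± 1.5, Csf1 at 16.8 ± 0.3, Tnfaip3 at 13.3 ± 0.2 and Nfkb1 at 10.3 ± 0.3 RPKM came next, and Cxcl1 at 3.13 ± 0.50 and Ptgs2 at 1.59 ± 0.28 were lowest. In EV_Tm the order had changed in the middle. Nfkb2 stayed first at 108 ± 4 RPKM, while Nfkbia at 62.8 ± 1.5 had drawn level with Ccl2 at 64.1 ± 1.2, the libraries of the 2 genes overlapping. Rela was at 28.0 ± 1.3, Relb at 24.4 ± 1.3, Tnfaip3 at 21.8 ± 0.6 and Cxcl1 at 18.4 ± 0.6 RPKM (SD, n = 3). Csf1 at 12.7 ± 0.2 and Nfkb1 at 10.8 ± 0.1 now lay under Cxcl1, and Ptgs2 was last at 1.16 ± 0.23. Ccl2 was the most abundant transcript per length of the 4 targets in both groups.

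The rest of the pathway was read from 8 lists with 130 genes, of which 95 were tested, 24 rose, 27 fell and 44 did not pass (53.7% of those tested passed, against 47.4% of all genes). The up to 4 genes with the smallest p on each list are named. Of 6 tested genes for other subunits and IkB proteins, 3 rose and Rel fell (median log2 fold change 0.20). Nfkbiz, which encodes the nuclear IkB-zeta, went from 6.90 ± 1.71 to 21.5 ± 1.3 CPM (SD, n = 3 each), a 3.11-fold rise. Nfkbie, for IkB-epsilon, rose 1.43-fold, and Bcl3, for a nuclear IkB that binds p50 and p52, 1.26-fold.

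Among 16 upstream kinases and their partners 4 rose, 5 fell and 7 did not pass (median -0.04). Tab2, the adaptor that links TAK1 to ubiquitin chains, fell 1.79-fold, from 298 ± 7 to 167 ± 1 CPM (SD, n = 3 each), and Map3k7, which encodes TAK1 itself, 1.25-fold. Chuk, for the IkB kinase subunit alpha, fell 1.35-fold, while Map3k14, for the alternative-pathway kinase NIK, rose 1.29-fold. Of 17 adaptors 3 rose, 5 fell and 9 did not pass (median -0.09). Traf1, a TNF receptor adaptor that is itself a known NF-kB target, rose 2.39-fold to 25.2 ± 1.4 CPM (SD, n = 3), and Traf4, Traf2 and Tank fell 1.56-fold, 1.25-fold and 1.17-fold.

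The 14 deubiquitinases and other negative regulators had 4 risen, 5 fallen and 5 not passing (median -0.03), with large changes in both directions. Zc3h12a, for the RNase Regnase-1 that degrades cytokine transcripts, rose 3.09-fold from 8.55 ± 1.60 CPM, and Tnip1, for a partner of A20, 1.73-fold from 73.2 ± 2.5 CPM (SD, n = 3). Cyld, for another deubiquitinase that restrains the pathway, fell 1.88-fold, from 343 ± 18 to 182 ± 6 CPM (SD, n = 3 each), and N4bp1, a ubiquitin-binding inhibitor of the pathway, 1.39-fold. Tnip1 moved in the direction of Tnfaip3, and Cyld in the opposite one.

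Of 14 receptor genes tested, 6 fell, Tnfrsf1a rose and 7 did not pass (median -0.26). Tnfrsf1a, the main TNF receptor gene, rose 1.17-fold, whereas Eda2r fell 1.73-fold, Tnfrsf12a, for the receptor of TWEAK, 1.46-fold and Ltbr, for the lymphotoxin-beta receptor, 1.25-fold. Ligand genes were scarce. Of 11, only 4 could be tested, Il33 rose 2.67-fold from 1.69 ± 0.25 CPM and Ltb 1.78-fold from 3.89 ± 0.19 CPM (SD, n = 3), and 2 did not pass. Tnf had 0 counts in every library, which allows at most 3 counts, or 0.105 CPM of the unscaled library, and Il1b had 2 counts over all libraries; both were named after their counts were seen.

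Of 17 other NF-kB targets tested 7 rose, 4 fell and 6 did not pass (median 0.27). Ier3, a stress-inducible survival gene, rose 2.13-fold, Nos2, for inducible nitric oxide synthase, 2.09-fold from 20.1 ± 1.2 to 42.0 ± 2.6 CPM, Cx3cl1, for the chemokine fractalkine, 1.94-fold and Mmp9, a matrix protease gene, 1.58-fold (SD, n = 3 each). Cxcl2, Cxcl3 and Cxcl5, the nearest relatives of Cxcl1, had 17, 4 and 13 counts over all 6 libraries and were not tested, and these were named after their counts were seen. Cxcr2 and Ccr2, the main receptors for CXCL1 and CCL2, had 0 counts in all libraries and Csf1r, the receptor for CSF1, 10 counts in all, again named after the counts were seen. On that list of receptors and prostaglandin genes 7 were tested and 1 passed, Ptges, for the prostaglandin E synthase downstream of Ptgs2. It fell 2.05-fold, from 11.6 ± 3.0 to 5.66 ± 0.25 CPM (SD, n = 3 each), in the same direction as Ptgs2.

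**Figure D4:**
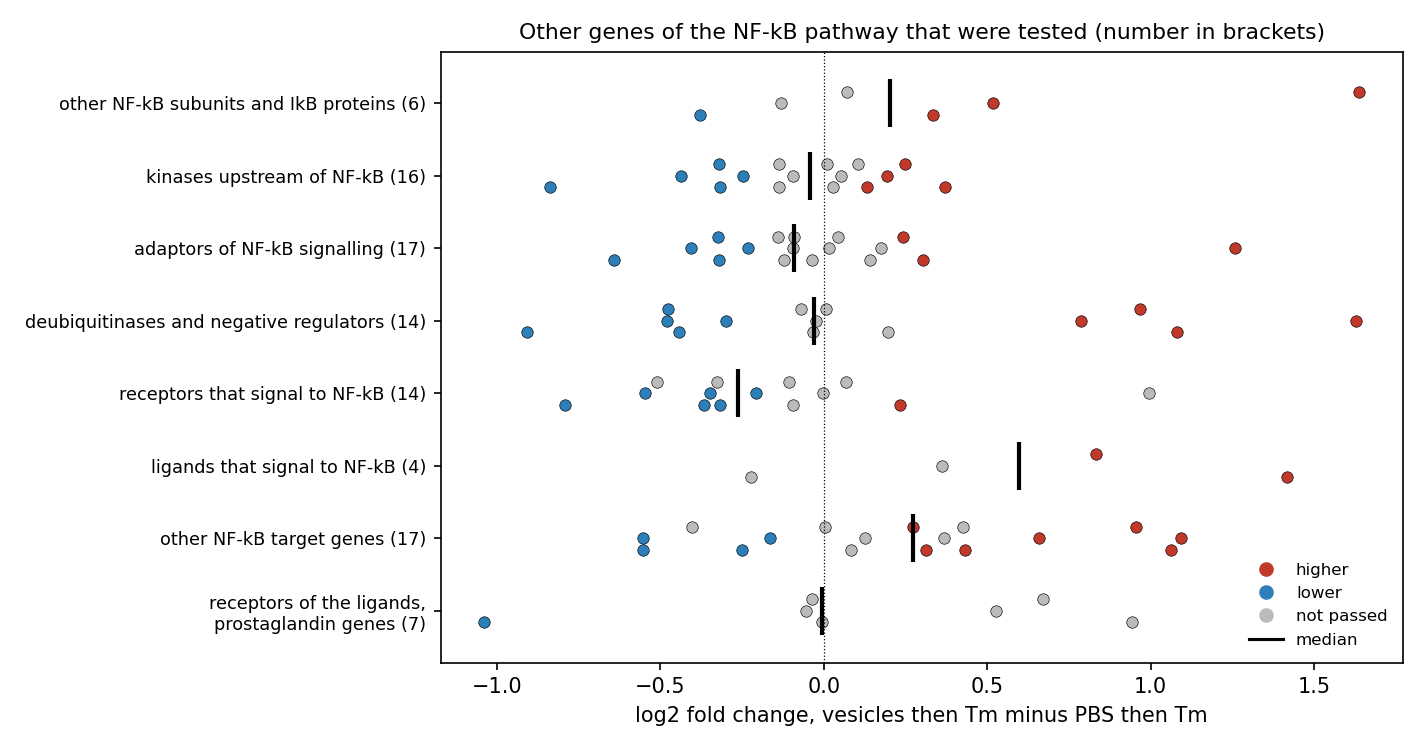
Log2 fold change, EV_Tm minus PBS_Tm, of the 95 tested genes on 8 lists of the NF-kB pathway, 1 mark a gene, red where higher, blue where lower and grey where the test was not passed, with the median of each list as a black line. The marks furthest to the right are Nfkbiz and Zc3h12a at 1.64 and 1.63, and Ptges at -1.04 is furthest to the left.

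The libraries held 28654248 to 32550268 counts, and 3808 genes passed as higher and 4168 as lower in all, against 4307 and 3706 with library size alone in place of TMM. The share of mitochondrial counts was 2.43 to 2.57% in PBS_Tm and 2.88 to 2.97% in EV_Tm, and 22912 to 23195 and 23322 to 23747 genes had counts, neither range overlapping. Beta-cell markers were at or near 0: all 15, insulin genes included, were too low to test, 9 had 0 counts in every library, and their summed level was 0.133 to 0.597 CPM in PBS_Tm and 0.310 to 1.10 in EV_Tm. The data thus go against the beta cell label, and the text calls the samples by their labels only. Leukocyte markers, which matter for chemokine genes, summed to 11.1 to 11.8 CPM in PBS_Tm and 11.1 to 15.3 in EV_Tm, where 1 of 5 tested (Cd68) rose. Cd68 passed only narrowly (edgeR adjusted p = 0.0482), and its groups overlapped. Of the 4 that did not pass, Cd79a went from a mean of 1.61 CPM in PBS_Tm to 1.31 in EV_Tm and Aif1 from 0.889 to 0.762. Cd14 went from 4.78 to 5.12 CPM and Laptm5 from 0.275 to 0.392. The defining Tyrobp had 0 counts, Adgre1 1, in PBS_Tm, and Ptprc 4, all in EV_Tm replicate 1. Cd3e had 5, 1 and 2 counts in PBS_Tm and 0, 0 and 3 in EV_Tm. Itgam, given beside Cxcl1, was too low to test, with no overlap between the groups, and Lyz2 and Fcgr3 had 6 and 5, all in EV_Tm; these genes were named after their counts were seen. Fibroblast markers summed to 22.7 to 23.9 CPM in PBS_Tm and 17.4 to 20.3 in EV_Tm (of 4 tested, 2 fell and 1 rose; Acta2 had 0 counts), and acinar or duct markers to 86.0 to 93.9 CPM and 111 to 114 (Sox9 and Cela1 rose; Cpa1, Prss2, Amy2b and Krt19 had 0 counts). Endothelial markers summed to 38.1 to 39.5 CPM in PBS_Tm and 37.0 to 38.0 in EV_Tm. Of 4 tested Pecam1 fell, from 28.5 ± 0.8 to 24.5 ± 1.0 CPM (SD, n = 3 each, edgeR adjusted p = 0.0202), and 3 did not pass. Of these 3, Cdh5 went up from a mean of 3.97 to 5.14 CPM and Vwf from 6.18 to 7.48, both with no overlap between the groups. Tek went from 0.301 to 0.254 CPM, and Kdr, Emcn and Cldn5 had 0 counts. Markers of other islet endocrine cells summed to 0.933 to 1.33 and 1.06 to 1.93 CPM, neither of the 2 tested passed, and Sst had 0 counts. The part of these lists, of the mitochondrial share and of the number of genes with counts in the results was not tested, and in bulk samples fewer cells of a type and less RNA per cell cannot be told apart. Whether samples of a group were separate cultures is not stated in the labels, so the spread behind the p-values may be technical only.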

How the data were processed

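RNA-seq counts per gene were analysed in 6 libraries, 3 EV_Tm and 3 PBS_Tm, grouped by their titles. The authors aligned adaptor-trimmed reads with HISAT2 2.2.1, per the labels' protocols. The submitters' processing notes name featureCounts 2.0.6 and mm39, but 53499 of 54409 gene IDs shared with GENCODE M21 (98.33%), and 9 of the 10 genes here, have the start and end of GRCm38, and the deposited coordinates are read as such. The member that differed was Nfkb2. The deposited counts are raw and unnormalized; the deposited table also holds other values, gene start, end and length in bases. How strand and multi-mapping reads were treated is not given in the sources used here.

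Groups were compared with edgeR 4.0.16 (R 4.3.3): TMM factors, filterByExpr, two-sided quasi-likelihood F test and Benjamini-Hochberg adjustment over 16844 genes, with no term but group. The SE is the absolute log2 fold change over the square root of F, and intervals are 95%. The scripts were tested on simulated data. Libraries of one group differed by more than sampling noise (mean chi-square per gene 3.71 to 7.78), so all were kept. Libraries held 28654248 to 32550268 counts, of which 3 counts correspond to 0.0922 to 0.105 CPM, a limit for counting error only.

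The members, gene lists and alternatives were chosen with earlier results of these data known. All 10 members are named, and on each list up to 4 genes that passed, by smallest p, plus Rel; ratios between members and genes named for low counts were added after the values were seen. Promoter sequences are RefSeq's (GRCm38.p6). Alternatives were DESeq2 1.42.0 size factors and test, library size alone, no or a stricter filter (1 CPM in 3 libraries), voom in limma 3.58.1, a replicate block, an adjusted p under 0.01 and leaving out each library.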

Additional observations from a re-analysis of the deposited data

How the results depend on the processing

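Each gene was refitted under 14 alternatives. Rela, Nfkbia, Tnfaip3, Cxcl1, Ccl2 and Csf1 kept their direction and their call in all 14, with log2 fold changes of -0.34 to -0.27, 0.83 to 0.89, 0.69 to 0.75, 2.44 to 2.67, 0.21 to 0.28 and -0.43 to -0.37. Nfkb2 passed in none, and its value ran from -0.03 to 0.04. Relb and Nfkb1 passed only with library size alone (log2 fold changes 0.13 and 0.11), which raised the members called higher from 4 to 6 and gave 28 pathway genes higher and 24 lower, against 24 and 27. Ptgs2 (adjusted p = 0.0237) and Rel (0.0125) were lost at an adjusted p under 0.01, and with single libraries left out Ptgs2 lay between -0.59 and -0.31 and Rel between -0.45 and -0.27. The cause was not tested. Leaving out a library gave 2 to 3 members lower and 4 higher, and 22 to 26 pathway genes higher and 22 to 28 lower. The replicate numbers did not pair the samples (correlations of same-numbered deviations -0.0426, 0.0163 and -0.0141), and with them as a replicate block 3679 genes were higher and 4058 lower, 4 members were higher and 3 lower, and no member's call changed. Nothing can be said of a change in Tnf, Il1b, Cxcl2, Cxcl3 and Cxcl5, whose counts were too few to test.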

Other observations

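Beyond the 4 named on their list, 2 more negative regulators rose and 3 more fell, all 5 chosen after their values were seen. Those that fell, with smaller p-values than the 2 that rose, were Itch, Tax1bp1 and Otud7b, with log2 fold changes of -0.48, -0.44 and -0.30. Zfp36, which encodes tristetraprolin, a protein that destabilises cytokine transcripts, went from 3.78 ± 0.65 to 7.38 ± 0.88 CPM, and Tnip3, for a relative of the A20 partner Tnip1, from 2.02 ± 0.14 to 4.27 ± 0.32 CPM (SD, n = 3 each). Birc3, for an inhibitor of apoptosis that is a well-known NF-kB target, rose 1.35-fold, Sod2, for the mitochondrial superoxide dismutase, 1.24-fold, and Bcl2l1 1.21-fold. On the same list of targets Gadd45b, a stress gene, fell 1.47-fold, Cd83 1.47-fold, Lif, a cytokine gene, 1.19-fold and Plau 1.12-fold. Icam1, for an adhesion molecule, had 4.43 ± 1.02 and 4.83 ± 0.74 CPM (SD, n = 3 each) and did not pass. These targets too were named after their values were seen.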
